A study of Mus musculus with 4 samples.

Results

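Loss of Itch in activated T cells was examined by setting the Itch KO library against the wild type library, 2 of the 4 libraries in the series, over all 9926 genes that had enough reads out of 21937 in the table. Each held RNA of CD4+ T cells taken from the spleens of B6 mice at an age of 6 weeks and treated with PMA and ionomycin. The Itch KO mice carried floxed Itch with Cd4cre, which deletes the gene in T cells from a thymic stage that precedes both CD4 and CD8 cells, so the loss is not limited to CD4+ cells. The wild type carried no named allele, and the labels do not say whether it had a Cre. The other 2 libraries were labelled as a double KO of Itch and WWP2 and as WWP2-/-, with the same tissue, strain, age and stimulus. Each genotype had 1 library, the number of mice behind it is not given in the sources used here, and no value below has a replicate check.

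Itch is a HECT-type ubiquitin ligase of the NEDD4 family that marks proteins such as JunB for degradation. Mice without it are known for an inflammatory disease with an excess of type 2 helper T cells, the cells that make IL-4, IL-5 and IL-13. PMA and ionomycin act below the T cell receptor, switching on protein kinase C and calcium signalling, so surface receptors are bypassed during the stimulation. The comparison asks how activated T cells differ in the absence of the ligase, here outside the type 2 cytokine genes.

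The libraries held 17640778 counts in Itch KO and 17627531 in wild type. The labelled double KO had 17990392 and WWP2 KO had 17130747. Over the 9926 genes with a mean level of at least 2 CPM (CPM, reads relative to the TMM-scaled size of each library), the median level was 37 CPM in Itch KO and 37.7 CPM in wild type. Itch itself had 1914 reads in Itch KO against 2083 in wild type; the count covers the whole gene, exons outside the deleted part included, and so checks nothing about the deletion. Wwp2 had 1332 reads in Itch KO against 1363 in wild type. It had 1135 reads in the library labelled double KO against 4 in WWP2 KO, so that library is named by its label only. CD4+ identity was checked with 14 T cell and CD4 markers, among them Cd3e (2209 reads in Itch KO, 2066 in wild type) and Cd4 (4262 and 4069 in the same order). Their summed reads were 82697 in Itch KO and 85452 in wild type, and 0 of the 14 differed by 2-fold.

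A gene was called higher or lower when its log2 ratio of Itch KO over wild type, computed with a prior count of 2, reached 1 in size and the exact binomial 95% interval of its fold excluded 1. Folds below are ratios of CPM without a prior count, with that interval in brackets. The interval covers counting error only, and a call compares 2 libraries. By this rule 485 genes, or 4.89% of those measured, were higher in Itch KO, and 84, or 0.846%, were lower. The median log2 ratio over all 9926 genes was -0.02. Most differences were moderate. Among the higher genes, 258 were under 3-fold, 157 lay between 3-fold and 5-fold, 49 between 5-fold and 10-fold, and 21 reached 10-fold. Among the lower genes, 68 were under 3-fold and 15 lay between 3-fold and 5-fold, which left 1 gene, Slc15a2, past 10-fold. Calls were denser among genes of low level: 252 of 2012 genes between 2 and 10 CPM were higher (12.5%) and 39 were lower (1.94%), while 40 of 2465 genes at 100 CPM or above were higher (1.62%) and 7 were lower (0.284%). The 10 higher genes with the largest gain in CPM, a quantity that grows with level and transcript length, were Icos, Tnfrsf4, Tnfrsf9, Tnfsf8, Furin, Il13, Vim, Rgs1, Cish and Csrnp1. Vim, which encodes the intermediate filament vimentin of effector cells, had 7594 reads in Itch KO against 1993 in wild type, 3.81-fold (3.63 to 4.0). Rgs1, a brake on chemokine receptor signals, had 6076 reads against 2439, and the STAT5 feedback gene Cish had 9198 against 3867. The low-level filter used all 4 libraries, and with the mean of the Itch KO and wild type libraries in its place 404 genes were called higher, 401 of them shared.

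**Figure D1:**
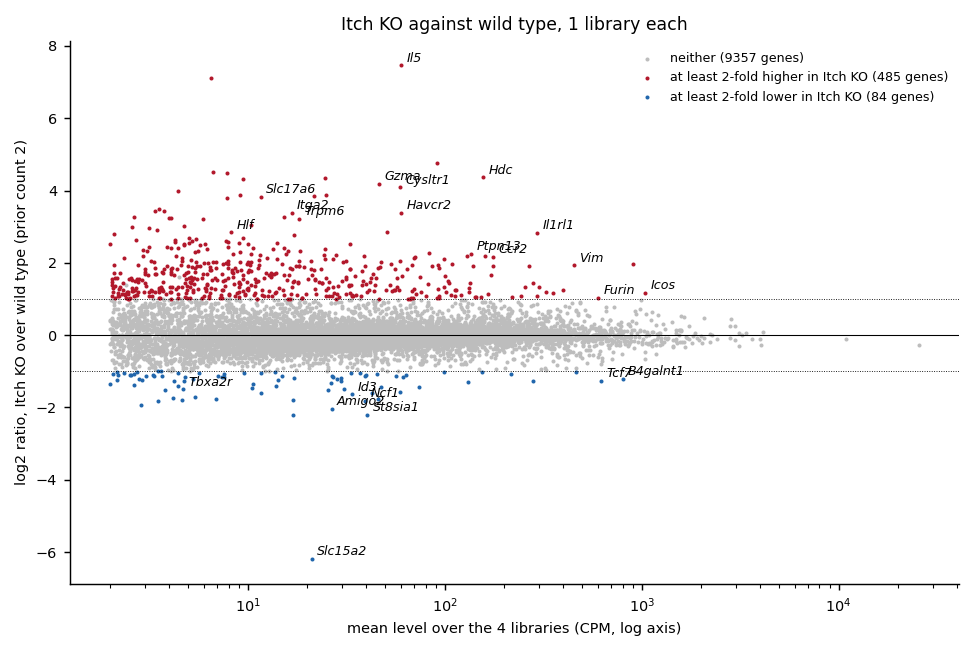
Log2 ratio of Itch KO over wild type (prior count 2) against the mean level over the 4 libraries in CPM on a log axis, 1 point a gene; red points are the 485 genes at least 2-fold higher, blue points the 84 at least 2-fold lower, and dotted lines mark a log2 ratio of 1 in either direction. Higher genes outnumber lower ones in each band of level, and Slc15a2 lies alone at -6.19.

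Genes of 4 classes were collected in 39 lists: surface and pattern receptors, enzymes, transporters and channels, and transcription factors. The classes held 1455 of the measured genes (14.7%), 145 of the 485 higher genes (29.9%) and 31 of the 84 lower ones (36.9%). Receptors had the largest share of higher genes among the classes. The receptor lists held 574 genes, of which 211 were measured, and 47 of these were higher (22.3%) and 7 lower (3.32%), with a median log2 ratio of 0.30. Of 586 factor genes 301 were measured, with 34 higher (11.3%), 5 lower (1.66%) and a median of 0.10. Of 1320 enzyme genes 656 were measured, with 50 higher (7.62%), 9 lower (1.37%) and a median of 0.01. Transporters and channels differed from these in the balance of directions. Of their 776 genes 287 were measured, with 14 higher (4.88%), 10 lower (3.48%) and a median of 0.04. The low-level filter is a mean over all 4 libraries. A member could pass it through a high level in Itch KO or in the labelled double KO alone. A member that passed only because it was high in Itch KO had to differ. Il1r1 and Fut7, for example, passed only through the labelled double KO, with 37.1 and 6.62 CPM there. With the filter on the pair alone, 401 of the 485 higher genes stayed called. These shares therefore describe the measured members and not the whole families. Each list count below is to be read beside the shares over all measured genes, 4.89% higher and 0.846% lower. A short list with few or no calls can lie near them.

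**Figure D2:**
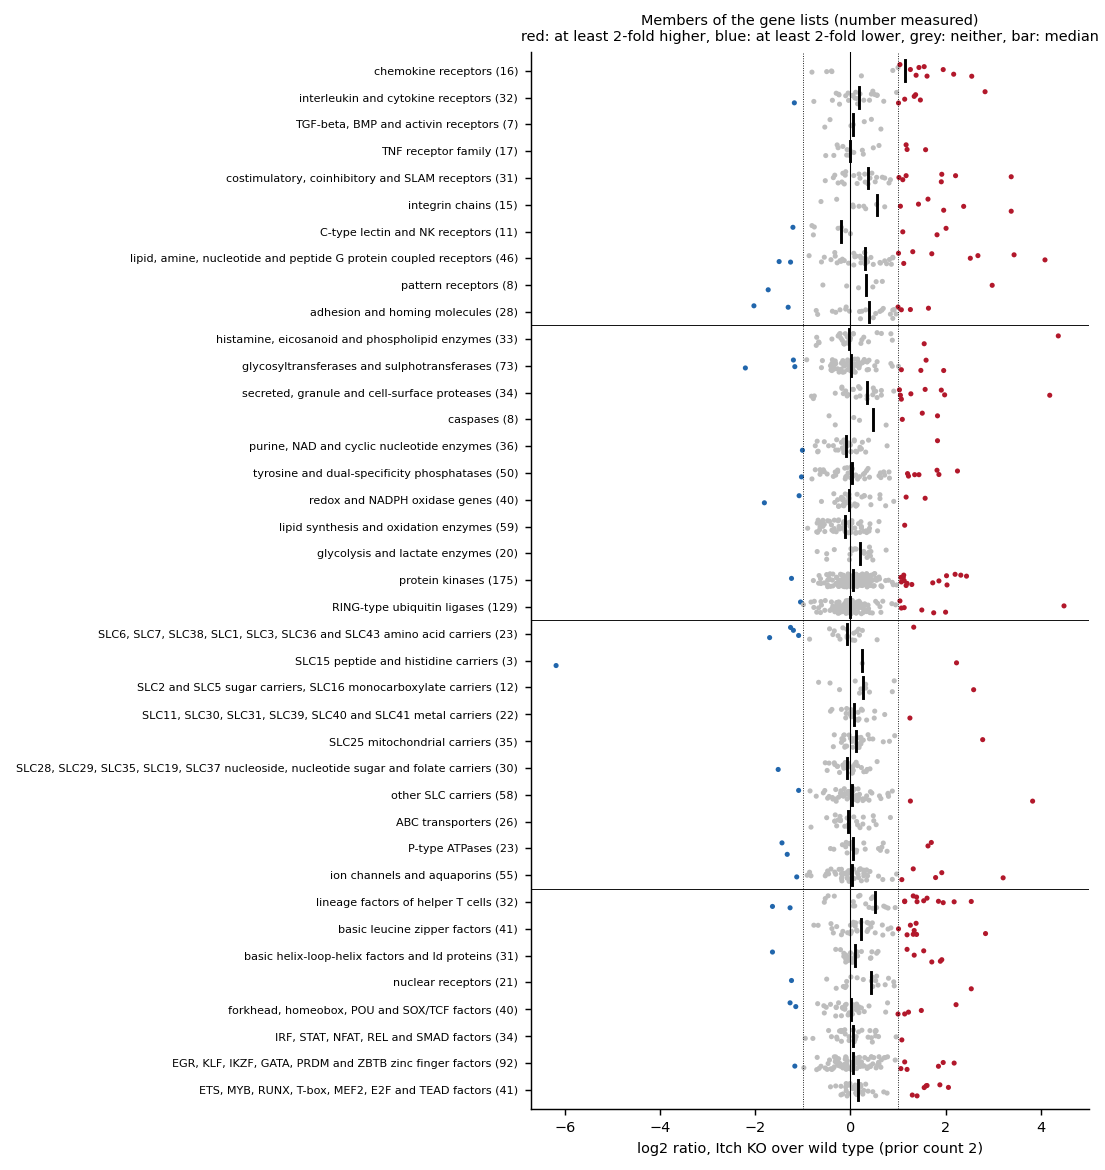
Each point is the log2 ratio of Itch KO over wild type (prior count 2) of 1 member of a list, with the number of measured members in brackets and the list median as a black bar; receptor, enzyme, transporter and factor lists are separated by lines from top to bottom. The median of the chemokine receptors, 1.15, lies past the 2-fold line, while the amino acid carriers have 4 lower members against 1 higher one.

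Among the called receptors, the leukotriene receptor genes Cysltr1 and Ltb4r1 had the highest ratios. Cysteinyl leukotrienes and leukotriene B4 are lipid mediators of allergic and acute inflammation that draw leukocytes into tissue. Cysltr1, which encodes a cysteinyl leukotriene receptor, had 764 reads in Itch KO against 43 in wild type, and 3518 in the labelled double KO against 45 in WWP2 KO. The other cysteinyl leukotriene receptor gene, Cysltr2, had 261 reads in Itch KO against 39 in wild type, a 6.69-fold difference (4.77 to 9.62), and 310 against 63 in the other pair. Ltb4r1, the high-affinity leukotriene B4 receptor gene, had 52 reads against 3, or 17.3-fold (5.61 to 86.7), and 186 against 5. For all 3 genes both libraries with an Itch KO label were above both libraries without it. Agreement between the pairs was common, with 425 of the 485 higher genes also called higher in the other pair. The prostacyclin receptor gene Ptgir was also higher, with 73 reads in Itch KO against 21 in wild type (3.47-fold, 2.11 to 5.95). In contrast Tbxa2r, which encodes the thromboxane receptor, was lower, with 42 reads against 122, or 2.91-fold (2.03 to 4.23), and 65 against 100 in the other pair.

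Leukotriene and thromboxane receptors belong to a list of 46 measured G protein coupled receptors for lipids, amines, nucleotides and peptides, of which 8 were higher and 2 lower, with a median of 0.30. F2rl2, a protease-activated receptor gene, had 38 reads in Itch KO against 5 in wild type. Gpr183, whose product guides cells to oxysterols in the follicles, had 2787 reads against 1280. Gpr83 had 416 reads against 167 in this pair but 182 in the labelled double KO against 243 in WWP2 KO, so its direction was not shared by the other pair. Gpr174, which encodes a lysophosphatidylserine receptor that restrains T cells, was the other lower member. It had 2882 reads in Itch KO against 6887 in wild type, 2.39-fold lower (2.29 to 2.50), and 3279 against 6480 in the other pair.

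Chemokine receptors, which steer T cells towards tissue, were the list with the largest share of higher members among the receptor lists. Of 16 measured, 9 were higher and 0 lower, with a median log2 ratio of 1.15. Ccr2 and Ccr4 were among those with the most reads. Ccr2 had 1860 reads in Itch KO against 412 in wild type, 4.51-fold (4.05 to 5.03). Ccr4, a receptor of type 2 and skin-homing cells, had 2973 reads against 768, or 3.87-fold (3.57 to 4.19). In the other pair Ccr2 had 10264 reads against 368 while Ccr4 had 1985 against 806, so the labelled double KO exceeded Itch KO for Ccr2 and not for Ccr4. Ccr1 had 39 reads in Itch KO against 5 in wild type, and Ccr3, the eotaxin receptor gene, had 133 against 44. Ccr1 passed the low-level filter only through its level in the labelled double KO, 53.2 CPM. Other higher members were Cxcr6, Ccr8, Cxcr5 and Xcr1, at log2 ratios between 1.44 and 1.04. Receptors of resting T cells were among the members that gave no call. Ccr7, the lymph node entry receptor gene, was at -0.40 with 9584 reads in Itch KO against 12601 in wild type, and Cxcr4 was at -0.50. In the other pair Ccr7 was called lower, with 3258 reads against 12378, while Cxcr4 had 3075 against 2029 and no call.

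Integrins anchor cells to matrix and epithelium. Of 15 measured chains, 6 were higher and 0 lower, with a median of 0.55. Itga2, the collagen-binding alpha chain gene, had 185 reads in Itch KO against 16 in wild type, 11.6-fold (6.93 to 20.6). Itgae had 337 reads against 63, or 5.35-fold (4.08 to 7.11), and its partner chain Itgb7 had 1531 against 567, or 2.70-fold (2.45 to 2.98). Together they form the receptor of epithelial E-cadherin. Itgb3 had 2523 reads against 646, its partner Itgav 5309 against 2563, and Itgb8, another partner of Itgav, 359 against 115. Chains of the general T cell integrin LFA-1 gave no call, with Itgal at -0.29 and Itgb2 at 0.05. The other adhesion and homing molecules had 4 of 28 members higher, Nrp1 at 1.64, Cd47 at 1.26, Ly6c2 at 1.07 and Alcam at 1.0. Among the 2 lower members was Amigo2, a neuronal-type adhesion gene, with 185 reads in Itch KO against 760 in wild type and 37 against 860 in the other pair.

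Costimulatory, coinhibitory and SLAM receptors set the threshold of T cell responses. Of 31 measured, 7 were higher and 0 lower, with a median of 0.37. Havcr2, which encodes the inhibitory receptor TIM-3, had 486 reads in Itch KO against 45 in wild type, 10.8-fold (7.95 to 15.0), and 3850 against 38 in the other pair. The inhibitory receptor genes Tigit and Lag3 had 2721 reads against 715 and 234 against 49. Icos, the costimulatory receptor of helper cells, had 18934 reads against 8425, 2.25-fold (2.19 to 2.31), and was among the 10 higher genes with the largest gain in CPM. Cd7 had 77 reads against 19 and Cd160 had 73 against 33. Cd28, at -0.53, and Ly9, at -0.36, were the lowest of the list and gave no call. In the TNF receptor family 3 of 17 were higher and 0 lower, with a median of -0.01. These were Tnfrsf8 (CD30) with 301 reads against 99, Tnfrsf4 (OX40) with 7660 against 3358, and Tnfrsf9 (CD137) with 7995 against 3542. The CD30 ligand gene Tnfsf8 had 9130 reads in Itch KO against 3361 in wild type, 2.72-fold (2.61 to 2.83), with 3729 in the labelled double KO against 3480 in WWP2 KO. For Tnfsf8 the Itch KO library therefore stood above all the others.

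Of 32 measured interleukin and cytokine receptor genes, 6 were higher and 1 lower, with a median of 0.17. Il1rl1, the IL-33 receptor gene of type 2 cells, had 1785 reads in Itch KO against 249 in wild type, 7.17-fold (6.27 to 8.22), and 19545 against 266 in the other pair. Il10ra had 944 reads against 340, Il18rap 511 against 197 and Il12rb1, shared by the IL-12 and IL-23 receptors, 841 against 332. The other higher members were the IL-1 receptor gene Il1r1, on 20 reads against 8, and the decoy receptor gene Il1r2, on 290 against 143. Kit, the stem cell factor receptor gene, was lower, with 188 reads against 429, or 2.28-fold (1.92 to 2.72). The common gamma chain gene Il2rg was at -0.05. In the list of C-type lectin and NK receptors 3 of 11 were higher and 1 lower, with a median of -0.19. Gp49a had 1006 reads against 249 and Lilrb4 had 1217 against 342, but these inhibitory receptors are near-identical neighbours and the assignment of reads between them is uncertain. Klrg1 was at 1.10, and Klrb1c, the NK1.1 gene, was lower with 37 reads against 88. Receptors of TGF-beta, BMP and activin had 0 of 7 members called in either direction. Pattern receptors split. Nlrp3, the inflammasome sensor gene, had 69 reads in Itch KO against 7 in wild type, 9.85-fold (4.54 to 25.4), and Tlr6, a lipoprotein receptor gene, had 32 against 111.

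**Figure D3:**
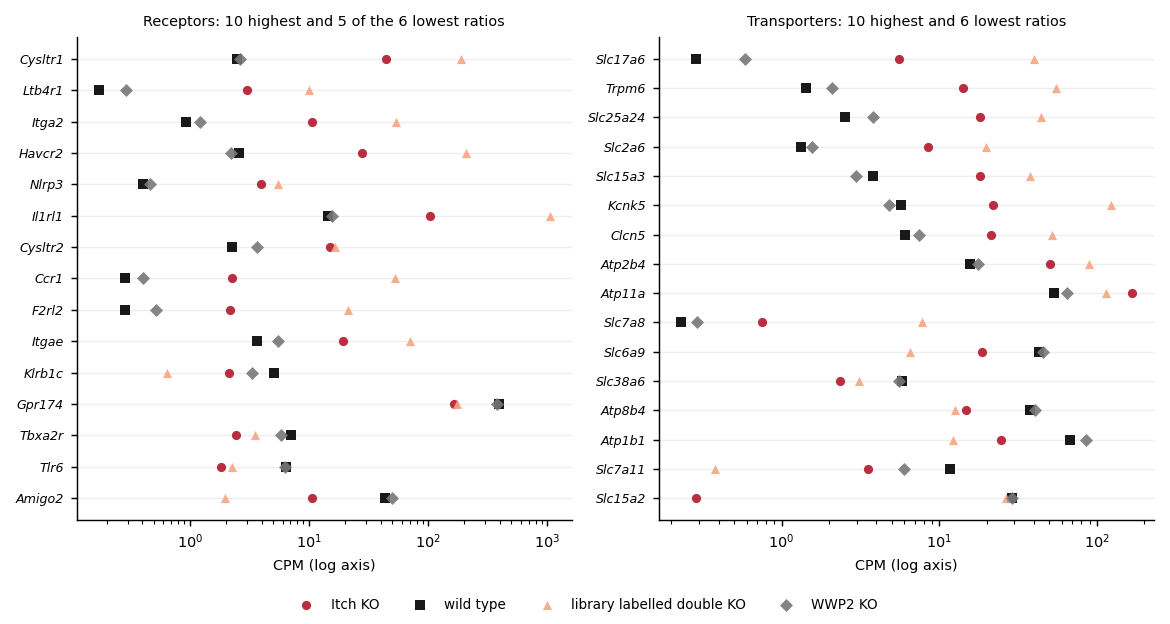
CPM on a log axis in each of the 4 libraries for the 10 highest and 5 of the 6 lowest called receptors (left) and the 10 highest and 6 lowest called transporters (right), ordered by the ratio of Itch KO over wild type. Wild type (black squares) and WWP2 KO (grey diamonds) lie close together for most genes, and for Slc15a2 Itch KO (0.288 CPM) lies apart from wild type (29.2), the labelled double KO (26.4) and WWP2 KO (28.8).

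The 3 highest ratios of the enzyme class were those of Rnf152, Hdc and Gzma. Hdc, which makes histamine from histidine, had 433 reads in Itch KO against 19 in wild type, and 11148 against 28 in the other pair. Histamine is stored by mast cells and basophils, so their markers were examined. Of 15 mast cell and basophil markers 10 had 0 reads in both libraries of the pair, among them Fcer1a, Ms4a2 and Mcpt8, and Cpa3 had 1 read in Itch KO and 2 in wild type. The summed level of the list was 139 CPM in Itch KO and 40.3 in wild type, nearly all of it from Hdc, Il1rl1 and Kit. In the list of 33 histamine, eicosanoid and phospholipid enzymes the other higher member was the acyltransferase gene Agpat4, with 517 reads against 175, and 0 were lower. The prostaglandin D2 synthase gene Hpgds was at -0.72, with 46 reads against 77.

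Proteases had 8 of 34 measured members higher and 0 lower, with a median of 0.35. Gzma, a granzyme gene, had 345 reads in Itch KO against 17 in wild type, and Gzmb had 3025 against 767, or 3.94-fold (3.64 to 4.27). Granzymes are also made by NK cells, whose 10 markers summed to 26.8 CPM in Itch KO and 10.3 in wild type; without Gzma, the measured markers Klrk1 and Klrb1c had 63 and 37 reads in Itch KO against 63 and 88 in wild type. The metalloproteases Adam8 and Mmp12 had 1072 reads against 283 and 229 against 76. Furin, which activates precursors of TGF-beta and other proteins, had 12953 reads against 6333. The other higher members were Mmp13, Adam19 and Cpd. Of 8 measured caspases 3 were higher and 0 lower. They were the inflammatory caspase genes Casp4, with 482 reads against 134, and Casp1, with 186 against 64, and the executioner caspase gene Casp6, with 245 against 114. The initiator caspase genes Casp2 and Casp9 were at -0.32 and -0.45.

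Phosphatases, which reverse kinase signals, had 7 of 50 measured members higher and 1 lower, with a median of 0.04. Ptpn13 had 1267 reads in Itch KO against 265 in wild type, 4.78-fold (4.18 to 5.48), and 8136 against 328 in the other pair. Ptprj had 377 reads against 105 and the MAP kinase phosphatase gene Dusp10 had 537 against 209. Dusp14 had 191 reads in Itch KO, 81 in wild type, 96 in the labelled double KO and 63 in WWP2 KO, highest in Itch KO. The rest of the higher members were Ptprn, Ptpn3 and Ptpn5. Ptpn6, which encodes SHP-1 and dampens T cell receptor signalling, was the lower member, with 1174 reads against 2391 and 1196 against 2214 in the other pair. Among 175 protein kinases 15 were higher and 1 lower. Among the 15 were kinases of mitosis: Aurkb with 123 reads against 21, Nek2 with 98 against 18, Ttk with 44 against 8, Cdk1 with 145 against 34 and Bub1 with 99 against 23. Trib3, a pseudokinase gene, was the lower one.

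Of 129 RING-type ubiquitin ligases, 7 were higher and 1 lower, with a median of -0.02, shares close to those of all genes. Rnf152, a lysosomal ligase gene, had 87 reads in Itch KO against 2 in wild type, a ratio of 43.5 with a wide counting interval (11.7 to 365), and 485 against 5 in the other pair. Trim16 had 54 reads against 12. Rnf128, which encodes the anergy ligase GRAIL, was higher at a log2 ratio of 1.13, and the Notch regulator gene Dtx4 was lower with 132 reads against 276. Metabolic enzymes gave few calls. Over all genes 4.89% were higher and 0.846% lower, and at those shares lists of this size would also hold few. Glycolysis and lactate enzymes had 0 of 20 members called in either direction, from Hk2 at 0.75 to Pdk1 at -0.70. Lipid synthesis and oxidation enzymes had 1 of 59 higher, Acot11 on 31 reads against 13, and 0 lower. In the list of purine, NAD and cyclic nucleotide enzymes, 1 of 36 was higher and 1 lower. Entpd1, which encodes the ATP-degrading surface enzyme CD39, had 144 reads against 39, and Pde3b, a cyclic AMP phosphodiesterase gene, had 1952 against 3944.

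Redox genes were called in both directions, 2 higher (5%) and 2 lower (5%) of 40 measured, with a median of -0.03. The shares over all genes were 4.89% and 0.846%, so the higher share was near that of all genes. Ncf1 encodes p47phox, the subunit that organises the NADPH oxidase. It had 322 reads in Itch KO against 1136 in wild type and 57 against 1208 in the other pair. The other measured subunits gave no call in Itch KO: Cybb had 122 reads against 72, Ncf4 had 407 against 306 and Cyba had 1913 against 2446. The cytochrome gene Cyp4f13 was the other lower redox gene. The higher members were the thiol repair genes Glrx, with 838 reads against 281, and Srxn1, with 300 against 132.

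Glycosyltransferases were called in both directions as well. Of 73 glycosyltransferases and sulphotransferases measured, 4 were higher (5.48%) and 3 lower (4.11%), with a median of 0.02. The shares over all genes were 4.89% and 0.846%, so the higher share was near that of all genes. Gcnt1 and Fut7 build the O-glycan and fucose parts of selectin ligands. Gcnt1 had 235 reads in Itch KO against 59 in wild type, 3.98-fold (2.98 to 5.39), and Fut7 had 19 against 5, or 3.80-fold (1.37 to 13.0). Chst11 and B4galnt4 were the other higher members. Gangliosides are sialic acid-bearing glycolipids of the plasma membrane. St8sia1, which makes ganglioside GD3 from GM3, had 220 reads in Itch KO against 1027 in wild type, with 509 in the labelled double KO against 1069 in WWP2 KO. B4galnt1, which makes GM2 from GM3, had 9763 reads against 22437, 2.30-fold lower (2.24 to 2.35), and 4303 against 19286 in the other pair. In a list of 10 measured ganglioside enzymes, drawn up after these values were seen, these were the 2 lower members and 0 were higher. Ugcg, which starts the pathway, was at -0.92 with 2283 reads against 4313, St3gal5, which makes GM3, was at -0.19, and the list median was -0.04. The third lower glycosyltransferase was St8sia6, at -1.17.

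Among the transporters 1 gene stood apart. Slc15a2 encodes PEPT2, a proton-coupled carrier of small peptides. It had 5 reads in Itch KO against 506 in wild type, and 490 in the labelled double KO against 493 in WWP2 KO. The level in Itch KO was thus far under that of the other 3 libraries, which differed little from each other, and the labelled double KO did not share it. The family had 2 other measured members. Slc15a3, a lysosomal histidine and peptide carrier gene, was higher, with 316 reads in Itch KO against 66 in wild type, 4.79-fold (3.66 to 6.34), and 701 against 51 in the other pair. Slc15a4, its close relative, had 364 reads against 306 and gave no call.

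Amino acid carriers were the transporter list with the largest number of lower members. Of 23 measured, 4 were lower and 1 higher, with a median of -0.08. Slc7a11, the cystine carrier gene, had 61 reads in Itch KO against 203 in wild type and 7 against 103 in the other pair. Slc6a9, a glycine carrier gene, had 323 reads against 746, 2.31-fold lower (2.03 to 2.64), and 121 against 779. Slc1a4, a carrier of alanine, serine and cysteine, had 546 against 1161, and Slc38a6 had 41 against 101. The higher member, Slc7a8, rested on 13 reads against 4, at the edge of the rule. The carrier genes Slc7a5, Slc3a2 and Slc1a5, on which activated T cells rely, were not among the calls. The large neutral amino acid carrier gene Slc7a5 was at -0.26, its partner Slc3a2 at -0.22 and Slc1a5 at 0.13.

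Carriers of other solutes that were higher in Itch KO were few and spread over families. Slc17a6, a vesicular glutamate carrier gene, had 97 reads against 5, 19.4-fold (8.03 to 61.1). Slc25a24, a mitochondrial ATP-magnesium carrier gene, had 314 against 44, or 7.13-fold, and was the 1 call among 35 mitochondrial carriers. Slc2a6, of the glucose carrier family, had 148 against 23 and was the 1 call among 12 sugar and monocarboxylate carriers. Slc39a8, an importer of zinc, had 379 reads against 158 and was the 1 call among 22 metal carriers. The 26 ABC transporters gave 0 calls, from Abcb1a at 0.84 to Abca7 at -0.83. The other calls among carriers were Slco3a1 (1.26), Mfsd3 (-1.09) and the gene model Gm14085 (-1.52). Ion channels and aquaporins had 5 of 55 members higher and 1 lower. Trpm6, a magnesium-permeable channel gene, had 247 reads against 25, or 9.88-fold (6.53 to 15.6), Kcnk5, a potassium channel gene, had 384 against 100, and the chloride-proton exchanger gene Clcn5 had 371 against 106. P-type ATPases split 2 and 2. The phospholipid flippase gene Atp11a had 2895 reads in Itch KO against 934 in wild type and the calcium pump gene Atp2b4 had 882 against 270. The sodium pump subunit gene Atp1b1 had 429 against 1169 and the flippase-family gene Atp8b4 had 259 against 656.

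Transcription factors that assign helper T cells to lineages had 11 of 32 measured members higher and 2 lower, with a median of 0.51. Beside Gata3, the type 2 factor gene, at 2.18, the highest was Pparg, a nuclear receptor gene linked to type 2 cells in tissue, with 91 reads in Itch KO against 14 in wild type, 6.50-fold (3.68 to 12.4). Prdm1, which encodes the effector factor BLIMP-1, had 889 reads against 228, or 3.90-fold (3.37 to 4.53). Zbtb32 had 160 against 43, Ahr 863 against 296, Runx2 553 against 208 and Maf 1173 against 470. Nfil3, Ikzf2 and Tox2 were higher at 1.39, 1.14 and 1.14. Eomes, a factor of cytotoxic and type 1 cells, had 498 reads in Itch KO and 162 in wild type, with 124 in the labelled double KO and 133 in WWP2 KO, so only Itch KO was high among the 4 libraries. The 2 lower members are factors of naive and memory T cells. Id3 had 354 reads against 1109 and 140 against 750 in the other pair. Tcf7, which encodes TCF-1, had 6746 reads against 16212, 2.40-fold lower (2.34 to 2.47), and 3257 against 16727. Lef1, a relative of Tcf7, at -0.55, and the basic leucine zipper gene Bach2, at -0.77, gave no call in this pair. Both were lower in the other pair, at -1.62 and -2.51.

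Basic leucine zipper factors had 8 of 41 members higher and 0 lower, with a median of 0.22. Hlf, of the PAR subfamily, had 350 reads in Itch KO against 47 in wild type, 7.44-fold (5.48 to 10.3), and 148 against 33 in the other pair. Jun had 1161 reads against 574 and Atf3 had 2943 against 1223. Among basic helix-loop-helix factors and Id proteins 6 of 31 were higher and 1, Id3, lower. Epas1, which encodes the hypoxia factor HIF-2 alpha, had 1134 reads against 298, 3.80-fold (3.35 to 4.34), and 18116 against 279 in the other pair. Arnt2, of the same family, had 72 against 18. Hhex, a homeobox gene, had 54 reads against 10, and Foxm1, a factor of mitotic genes, 276 against 97. Factors of the cell cycle were also among the 7 of 41 higher in the list of ETS, MYB, RUNX, T-box, MEF2, E2F and TEAD factors. These were E2f2 with 98 reads against 22, E2f8 with 90 against 23, E2f7 with 36 against 11 and Mybl2 with 112 against 36. The lower factors outside the lineage list were the thyroid hormone receptor gene Thrb (23 reads against 57), Sp6 (70 against 160) and the cilia factor gene Foxj1 (53 against 120). IRF, STAT, NFAT, REL and SMAD factors had 1 of 34 higher (2.94%), Irf5 on 329 reads against 154. Stat5a, at 0.96, lay just under the rule with 26260 reads against 13454.

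**Figure D4:**
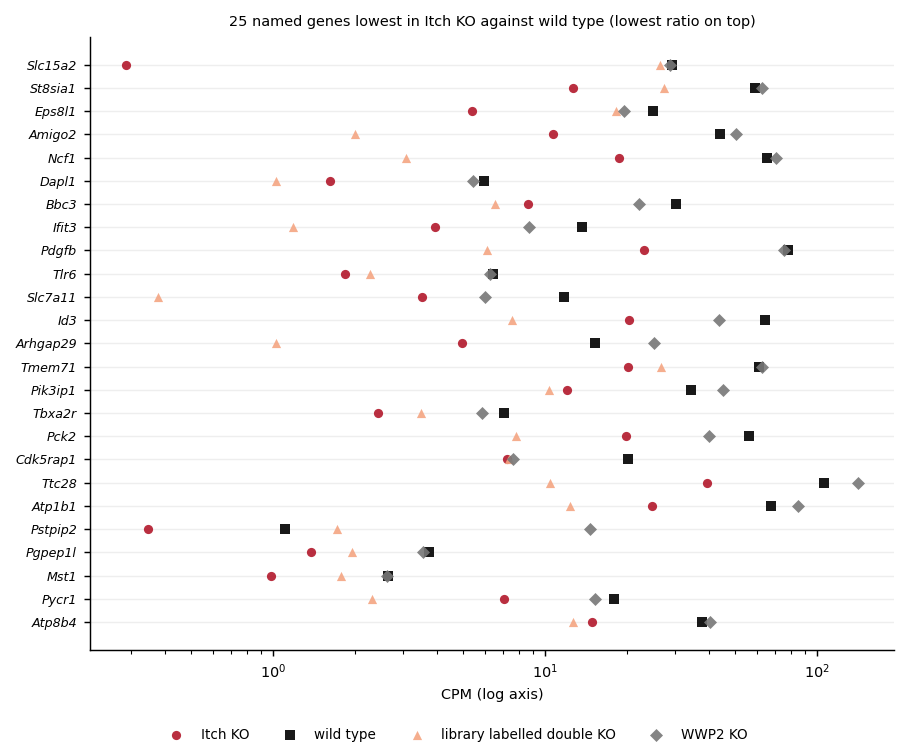
CPM on a log axis in each library for the 25 named genes with the lowest ratio of Itch KO over wild type, lowest on top. Most have the labelled double KO (triangles) on the same side as Itch KO (circles), while for Slc15a2 and Eps8l1 the labelled double KO lies beside WWP2 KO and for Cdk5rap1 wild type alone is high.

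The 84 lower genes were of varied function. Bbc3, which encodes the BH3-only death protein PUMA, had 150 reads in Itch KO against 525 in wild type, and its relative Bmf was lower at -1.11. Another BH3-only gene, Pmaip1, was called higher instead, with 458 reads against 168 and 950 against 145 in the other pair. Pdgfb, a growth factor gene, had 399 reads against 1358 and 114 against 1295 in the other pair. Arhgap29, a GTPase regulator gene, had 86 against 266, and Pik3ip1, an inhibitor of PI3 kinase, had 209 against 597. Ttc28 had 680 reads against 1843 and 194 against 2416 in the other pair. For Pdgfb, Arhgap29, Pik3ip1 and Ttc28 both libraries with an Itch KO label lay under both others. Agreement between the pairs was not particular to them, since 58 of the 84 lower genes were also called lower in the other pair. Tmem71 had 351 reads against 1063 and Dapl1, a gene of naive T cells, had 28 against 103. By contrast Cdk5rap1 had 125 reads in Itch KO against 348 in wild type but 137 and 130 in the labelled double KO and WWP2 KO, so wild type was the library that differed. Among the 10 largest losses in CPM were those of B4galnt1, Tcf7, Il16 (5377 reads against 10832), Gpr174, Spata13 (2390 against 5066), Pde3b, Ptpn6, Ttc28 and Pdgfb.

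Lower genes also included members of the amino acid response, a set of biosynthetic enzymes and carriers that the factor ATF4 drives when amino acids are short. This list was drawn up after the values were seen. Of 26 measured members 7 were lower and 0 higher, with a median log2 ratio of -0.58, beside -0.02 for all genes. Pck2, the mitochondrial form of phosphoenolpyruvate carboxykinase, had 344 reads in Itch KO against 969 in wild type, 2.82-fold lower (2.49 to 3.20), and 145 against 685 in the other pair. Pycr1, which completes proline synthesis, had 122 against 311, or 2.55-fold (2.06 to 3.17), and 43 against 262. Trib3, which feeds back on ATF4, had 191 against 454, and Gpt2, an alanine aminotransferase gene, had 338 against 742. The carriers Slc7a11, Slc6a9 and Slc1a4, described above, completed the 7. The serine pathway genes Phgdh, Psph and Psat1 lay at -0.91, -0.78 and -0.61 and gave no call. Atf4 itself was at 0.14, Ddit3 at -0.39, and Asns and Slc7a1 were highest at 0.19.

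The bases before the start of 3 of these genes are shown because they hold the letters TGATGNAA, the common form of the composite site bound by C/EBP and ATF proteins, where N is any base. The 250 bases before each RefSeq gene start (build GRCm38.p6) were searched on both strands, and capitals mark each match.
Pck2, chr14:55540133-55540200, plus strand: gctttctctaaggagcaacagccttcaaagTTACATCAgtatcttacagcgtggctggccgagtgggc
Pycr1, chr11:120643814-120643881, minus strand: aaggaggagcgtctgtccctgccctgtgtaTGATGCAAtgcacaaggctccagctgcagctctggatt
Slc7a11, chr3:50443623-50443709, minus strand: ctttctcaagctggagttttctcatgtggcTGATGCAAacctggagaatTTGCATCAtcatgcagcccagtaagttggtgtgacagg
The motif reads on the opposite strand in Pck2 and for the second match in Slc7a11, which holds 2 matches. All 7 lower genes of the list had a window, and 3 of the 7 held the motif (42.9%). In the whole list it was found in 5 of 23 windows (21.7%), against 183 of 7990 windows of measured genes (2.29%) and 3.45% of all 32851 windows. The list holds genes that ATF4 drives, so its share says little about the lower genes at large. Of all lower genes with a window, list members included, 5 of 65 held the motif (7.69%). Of these 5, 3 were the list genes shown above, and the list was drawn up after the values were seen. Among higher genes 10 of 376 did (2.66%). A match describes letters in a window and does not show that a factor binds there.

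Genes induced by interferon, a list also drawn up afterwards, were called in both directions. Of 40 measured, 4 were lower and 4 higher, with a median of -0.06. The lower ones were Ifit3 with 68 reads in Itch KO against 236 in wild type, Ifit2 with 330 against 756, the chemokine gene Cxcl10 with 423 against 921, and I830012O16Rik (Ifit3b in RefSeq) with 24 against 97. In the other pair these 4 had 22 against 150, 220 against 771, 226 against 1154 and 5 against 72. Ifit1 lay at -0.91, short of the rule. The higher ones were Ifi204 (24 reads against 6), Ifitm3 (21 against 6), Ifitm2 (62 against 27) and Mx1 (57 against 26), on few reads, and Isg15 lay at 0.93. Ifi204 and Ifitm3 passed the low-level filter only through the labelled double KO, at 11.6 and 9.63 CPM there.

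The windows before the starts of Cxcl10, Ifit3 and Ifit3b are shown because they hold GAAA, then any 2 bases, then GAAA, the core of the element through which interferon factors act, again in capitals and searched as above.
Cxcl10, chr5:92349063-92349132, minus strand: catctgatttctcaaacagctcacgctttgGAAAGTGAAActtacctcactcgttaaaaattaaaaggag
Ifit3, chr19:34583343-34583446, plus strand: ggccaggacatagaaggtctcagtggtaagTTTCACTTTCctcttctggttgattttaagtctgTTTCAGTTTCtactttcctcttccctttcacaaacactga
I830012O16Rik (Ifit3b), chr19:34607739-34607842, plus strand: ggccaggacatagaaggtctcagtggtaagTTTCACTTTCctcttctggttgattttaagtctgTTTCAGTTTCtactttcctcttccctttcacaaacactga
In both Ifit windows the motif reads on the opposite strand and occurs 2 times. These windows are identical over all 104 bases, and since the genes are near-identical copies, how their reads were divided is uncertain. The motif was found in 3 of the 4 lower genes (75%) and in 14 of 29 windows of the list (48.3%), against 253 of 7990 windows of measured genes (3.17%) and 2.98% of all windows. The list holds genes induced by interferon, so its share says little about the lower genes at large. Of all lower genes with a window, list members included, 8 of 65 held the motif (12.3%). Of these 8, 3 were the list genes shown above, and the list was drawn up after the values were seen. Among higher genes 13 of 376 did (3.46%).

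The Itch KO library was also set against each of the other 3, which asks where it differed from every library without the same label. It was at least 2-fold higher than each of them for 21 genes (0.212% of those measured) and at least 2-fold lower for 8 (0.0806%). Il9, a type 2 and mast cell growth factor gene, had 406 reads in Itch KO, 41 in the labelled double KO, 4 in WWP2 KO and 1 in wild type. The 21 also included genes of MHC class II, which presents peptides to CD4+ T cells. H2-Aa had 207 reads in Itch KO against 24 in wild type, 8.62-fold (5.64 to 13.8), H2-Ab1 had 147 against 18 and H2-Eb1 had 167 against 30. In the other pair these 3 genes had 81 against 23, 58 against 20 and 78 against 14, between Itch KO and the remaining libraries. Cd74, the invariant chain gene, had 878 reads against 257 and 1362 against 222. Ciita, the master regulator of class II, had 31 reads in Itch KO against 3 in wild type, 5 in the labelled double KO and 2 in WWP2 KO, below the low-level filter.

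Class II genes are a mark of antigen-presenting cells, so the markers of those cells were read beside them; in such bulk libraries more cells of a type and more RNA per cell cannot be told apart. The 12 dendritic cell markers, which include class II genes, summed to 126 CPM in Itch KO and 62.9 in wild type, with 4 of 7 measured members higher. Outside class II, Bst2, a marker of plasmacytoid dendritic cells among others, had 515 reads in Itch KO and 585 in wild type. Itgax had 27 and 12 in the same order and Siglech had 26 and 9. Zbtb46, a measured member without a call, had 106 and 64. The 10 B cell markers had 94 reads in Itch KO and 65 in wild type, and none of them reached the low-level filter. Among these Ms4a1 had 10 reads in Itch KO and 1 in wild type, and Cd79a had 16 and 34. Macrophage and monocyte markers had 332 reads in Itch KO and 118 in wild type. Of these Mpeg1 gave 212 and 50, while Csf1r was at 0 in both. Cd68 gave 103 and 52, just under the rule at a log2 ratio of 0.96, and 354 against 56 in the other pair. Mpeg1, a perforin-like gene of macrophages, was itself among the 21. CD8 T cells were marked by Cd8b1, also among the 21, with 267 reads in Itch KO against 127 in wild type, and by Cd8a with 9 and 2. The part of such cells in the class II, Mpeg1 and Cd8b1 differences was not tested.

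The rest of the 21 genes comprised Hlf, Eomes, Tnfsf8 and Dusp14, described above, and others of mixed function. Serpina3g, a protease inhibitor gene of a family of close copies, had 1531 reads in Itch KO against 421 in wild type, and 758 in the labelled double KO against 507 in WWP2 KO. Plek had 370 reads against 105 and 150 against 89. Prrg4 had 312 against 93 and 75 against 107. Unc13b, a vesicle priming gene, had 110 against 27, and Mreg, a lysosome gene, had 78 against 12. The chemokine gene Ccl5 had 709 reads in Itch KO against 239 in wild type, and Csf2, which encodes GM-CSF, had 337 against 121. The remaining 4 were Coro2a, Plscr1, Amica1 and Syde2. The 8 lower genes were Slc15a2, St8sia1, Eps8l1, Pstpip2, Fam105a, Zfp772, Haghl and Gm14085. Eps8l1, an actin regulator gene, had 93 reads in Itch KO against 433 in wild type and 338 in the labelled double KO against 333 in WWP2 KO. Fam105a had 462 against 1010 and 1497 against 1039, so the labelled double KO had the highest level where Itch KO had the lowest. Pstpip2 had 6 reads in Itch KO, 19 in wild type and 32 in the labelled double KO, against 251 in WWP2 KO.

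The library labelled double KO against WWP2 KO is another pair that differs by the Itch label and shares no library with the first. By its reads it also differs in Wwp2, with 1135 reads in the labelled double KO against 4 in WWP2 KO, so what goes with Itch and what goes with Wwp2 cannot be told apart there. In it 1155 genes were higher (11.6% of those measured) and 601 lower (6.05%). Of the 485 genes higher in Itch KO, 425 were also higher in the second pair, which is 87.6% of the 485 and 36.8% of the 1155. Of the 84 lower genes 58 were also lower, which is 69.0% of the 84 and 9.65% of the 601. The low-level filter is a mean over all 4 libraries, so a gene low in the first pair could pass through a high level in the labelled double KO alone, and such a gene had to be higher there. With the filter on each pair alone, 404 genes were higher in Itch KO, 84.2% of them also in the second pair, and 80 were lower, 66.2% of them also in the second pair. The ratio had the same sign in the second pair for 472 of the 485 (97.3%) and for 80 of the 84 (95.2%), while 48.2% of all measured genes were above 0 in that pair and 51.8% below. The 485 genes had a median log2 ratio of 1.54 in the first pair and 2.78 in the second, and the 84 genes had -1.20 and -1.60. The 26 lower genes without a call in the second pair included Slc15a2, Eps8l1 and Cdk5rap1. Calls in opposite directions were found for 2 higher genes and 0 lower ones. Slamf7, which encodes a SLAM family receptor, had 2161 reads in Itch KO against 1067 in wild type but 398 in the labelled double KO against 1181 in WWP2 KO. Syde2 had 162 against 71 and 29 against 76.

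**Figure D5:**
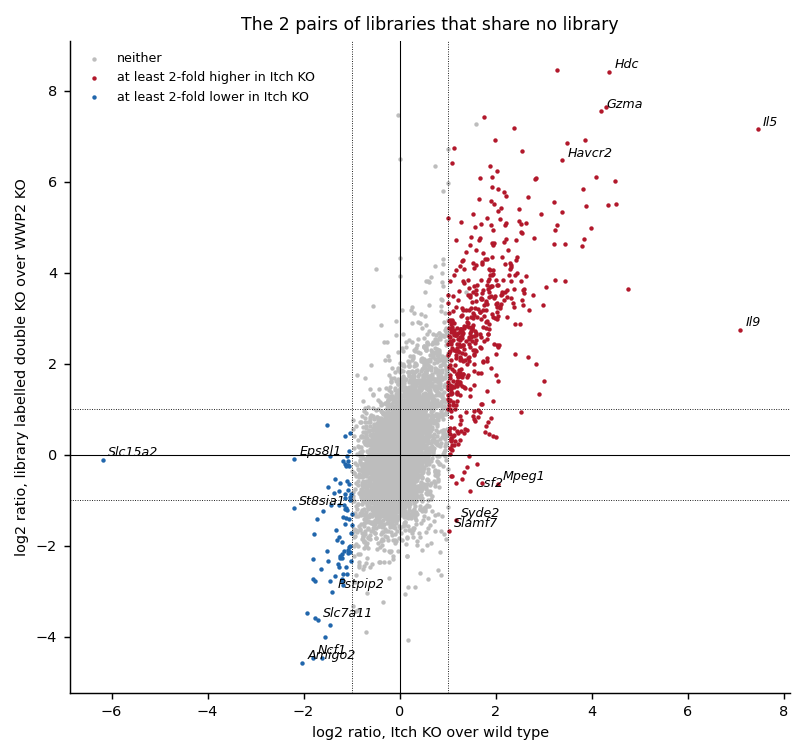
Log2 ratio of the labelled double KO over WWP2 KO (vertical) against that of Itch KO over wild type (horizontal), both with a prior count of 2, for the 9926 measured genes; red and blue points are the genes at least 2-fold higher and lower in Itch KO. Of the red points 425 of 485 lie past the upper dotted line, and of the blue points 58 of 84 lie past the lower one, while Slc15a2 (-6.19 and -0.12) and Slamf7 (1.02 and -1.68) do not follow.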

How the data were processed

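RNA of the 4 libraries was sequenced after mRNA enrichment, per the labels' protocols. The authors deposited 1 table of raw read counts per gene symbol (21937 genes, 6483 without a read), not normalized. The submitters' processing notes name the aligners TopHat 1.4.1 and Bowtie 1.0.0, the counter HTSeq 0.7.1 and build mm9. No annotation, strand setting or filter is given in the sources used here, so overlapping, antisense or near-identical genes may share or lose reads. From these counts, CPM were computed with TMM factors over the 4 libraries (0.983 in Itch KO, 0.984 in wild type, 1.033 in the labelled double KO and 1.001 in WWP2 KO) with edgeR 4.0.16 in R 4.3.3, and the rest in Python 3.11.15 with scipy 1.17.1, pandas 2.3.3, matplotlib 3.10.9 and numpy 2.4.6. With 1 library per genotype no p-value was computed. A size rule took its place: a log2 ratio of at least 1 in size with a prior count of 2, a mean over the 4 libraries of at least 2 CPM, and an exact 95% interval of the fold without 1. The reads carry no molecular identifiers and so do not count independent molecules. Sequences are from RefSeq (GRCm38.p6), to which 98.9% of the symbols were matched by name or synonym; mm9 coordinates were not used.

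The comparison, its members and the 52 gene lists (39 of the 4 classes and 13 of cell type markers) were chosen with earlier results of these data known, and 4 more lists were added after the values were seen. Genes were named by a rule: Itch and Wwp2; the 25 lowest ratios; the 10 highest and 6 lowest of each class; up to 2 highest and 2 lowest of a list; the 10 largest CPM differences in each direction; and up to 12 genes in each direction apart from all 3 other libraries. Other genes, mostly the rest of a short list of calls, were chosen after their values were seen. Some genes named by the rule are not reported here. Alternatives tried were DESeq2 1.42.0 size factors, other scalings, filters, prior counts, fold limits and interval levels.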

Additional observations from a re-analysis of the deposited data

Results flagged for a closer look

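Slamf7 and Syde2 passed the 2-fold rule in opposite directions, higher in Itch KO against wild type and lower in the labelled double KO against WWP2 KO. The log2 ratio of Slamf7 was 1.02 in the first pair and -1.68 in the second. That of Syde2 was 1.17 in the first pair and -1.44 in the second. With 1 library per genotype the difference between the pairs was not tested.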

How the results depend on the processing

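With 1 library per genotype, no replicate could be left out and no spread could be estimated. No paired analysis was possible because each group had 1 library. The 485 higher genes, the 84 lower genes, and the 425 and 58 called the same way in both pairs stayed within 1.5 times of those counts under DESeq2 size factors (494 and 80 genes for the first 2 counts), TMM factors from the pair alone (488 and 82), total counts alone (481 and 85), a low-level filter on the pair alone (404 and 80), a prior count of 0.5 (497 and 86) or 5 (463 and 79), and a 99% interval (479 and 83). Without a filter on low levels 720 genes were higher and 183 lower, with 93 lower in both pairs. With a mean of at least 10 CPM, 233 were higher and 45 lower, with 198 and 36 in both pairs. With a 3-fold limit, 227 were higher and 16 lower, with 208 and 11 in both pairs. These follow from how many genes and folds each setting admits. The share of calls that were higher was 85.2%, and 79.7% to 93.4% over the settings. Among the 329 named genes, 218 were called, and 0 of these changed direction under the other scalings and prior counts. Klrk1, with 63 reads in both libraries and no call, changed sign around 0. For 24 of 53 lists the median moved by more than 0.1 under at least 1 setting. Calls on few reads, such as Slc7a8, Fut7, Il1r1 and Ifitm3, are limited by depth.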
